A study of Mus musculus with 27 samples.

Results

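The proteasome genes of mouse primary cortical cells were described from a deposited table of expression values. The genes were chosen by name, as every entry whose symbol begins with Psma to Psmg and a digit, which found 49 of 59489 entries. Of these, 48 encode parts of the proteasome or the proteins that build, activate or inhibit it. The remaining one, Psmc3ip, was caught by the spelling of its name, and its product is a meiotic recombination protein outside the complex. By role there were 8 core alpha and 7 core beta subunits, 4 immune or thymus beta subunits, 6 base ATPases, 3 other base subunits, 8 lid subunits, 3 base assembly chaperones, 4 core assembly chaperones, 4 activators and 1 inhibitor.

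The cells were wild type, taken from cortex at embryonic day 16.5 and kept 14 days in culture, and polyadenylated RNA was sequenced in 27 libraries, 3 in each of 9 groups. Every group received a transcription inhibitor, and no group without one is analysed here. In 9 libraries it was DRB (50 µM, 2 h), a blocker of transcription elongation, in unstimulated cells, cells given bicuculline (20 µM, 1 h) and cells given BDNF (50 ng/mL, 1 h); their titles name no RNA fraction. In the other 18 libraries it was triptolide (1 µM, 3 h), a blocker of transcription initiation, in unstimulated cells and cells given bicuculline, with RNA from whole cells, nuclei or cytosol. Bicuculline raises neuronal firing by blocking GABA-A receptors, and BDNF is a growth factor that acts through the receptor TrkB. The design text names intron retention under these stimuli as the study's subject, and the table gives 1 FPKM value (fragments scaled by gene length and by library depth) per gene and library, so retained introns are not analysed here.

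The proteasome degrades proteins that carry ubiquitin chains. Its barrel-shaped core has outer rings of alpha subunits, which gate the entry, and inner rings of beta subunits, of which Psmb5, Psmb6 and Psmb7 cut the substrate. A regulatory particle sits on the core: its base holds the ATPases that unfold the substrate and its lid removes the ubiquitin. In neurons the proteasome is known for its part in the turnover of synaptic proteins. The transcription factor Nfe2l1 is known to raise the subunit genes together when proteasome activity is short.

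By an estimate from the spacing of low values the libraries held 67587699 to 147958762 fragments, with 12056 to 13911 genes at an FPKM of at least 1. All 8 markers of a neuron list were found: Rbfox3, Map2, Snap25, Syt1, Slc17a7, Slc17a6, Neurod6 and Camk2a. Of these, Rbfox3, Map2, Snap25 and Syt1 mark neurons in general, so the list is not specific to excitatory neurons. The list summed to 1626 to 2059 FPKM in the unstimulated groups and astrocyte markers to 402 to 631 FPKM, so the cultures are mixed. In bulk RNA, fewer cells of a type and less RNA per cell cannot be told apart. As a check of the fractions, 5 of 5 nuclear long noncoding RNAs (Meg3, Miat, Rian, Mirg and Snhg11) were higher in the nucleus of unstimulated cells, with a median log2 difference of 2.89. With bicuculline 5 of 5 were higher as well, with a median of 2.53. Libraries of the same replicate number moved together, and under DRB those of replicate 2 lay apart on the first principal component, which held 51.5% of the variance.

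The proteasome genes were highly expressed. Leaving out Psma8, the 4 immune or thymus beta subunits and Psmc3ip, which are described further on, the 43 others had group means of 5.9 FPKM (Psmd9) to 170.2 FPKM (Psmb4) in unstimulated DRB libraries. Their median was 71.2 FPKM, against 9.91 FPKM over the 12973 genes with a mean of at least 1. The median coefficient of variation over 3 libraries was 3.28% there and the highest 12.2%. Over the 9 groups this median ran from 3.05% (whole cells with bicuculline and triptolide) to 9.17% (bicuculline and DRB), and the highest value of a gene was 17.7%, in the latter group. In whole cells under triptolide the range was 2.95 FPKM (Psmg3) to 122.7 FPKM (Psmb7), with a median of 46.8 FPKM against 8.02 FPKM for genes with a mean of at least 1.

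By the median of each role, structural subunits were listed at higher levels than helper proteins, though the roles overlapped. FPKM is a level per gene length, so genes can be set side by side. In unstimulated DRB libraries the median level was 84.0 FPKM for core alpha subunits (Psma8 included), 95.7 FPKM for core beta subunits and 81.7 FPKM for base ATPases. It was 80.4 FPKM for the other base subunits and 65.0 FPKM for lid subunits. Activators had a median level of 20.8 FPKM and the inhibitor Psmf1 29.4 FPKM. The highest activator, Psme3 (55.4 FPKM), lay above some structural subunits, such as Psmb5 (38.9 FPKM). The chaperones that assemble the core had a median of 11.3 FPKM and those that assemble the base 6.56 FPKM. Within the lid, levels ran from 18.7 ± 0.694 FPKM (SD, n = 3) for Psmd11 to 145.8 ± 8.42 FPKM for Psmd8. Within the core alpha ring, Psma3 (32.9 ± 0.48 FPKM) and Psma7 (142.3 ± 5.02 FPKM) lay far apart; both are part of each alpha ring. The order of levels among close neighbours, such as Psmb4 and Psmb7 (170.2 ± 5.32 and 157.1 ± 0.993 FPKM), was not tested.

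**Figure D1:**
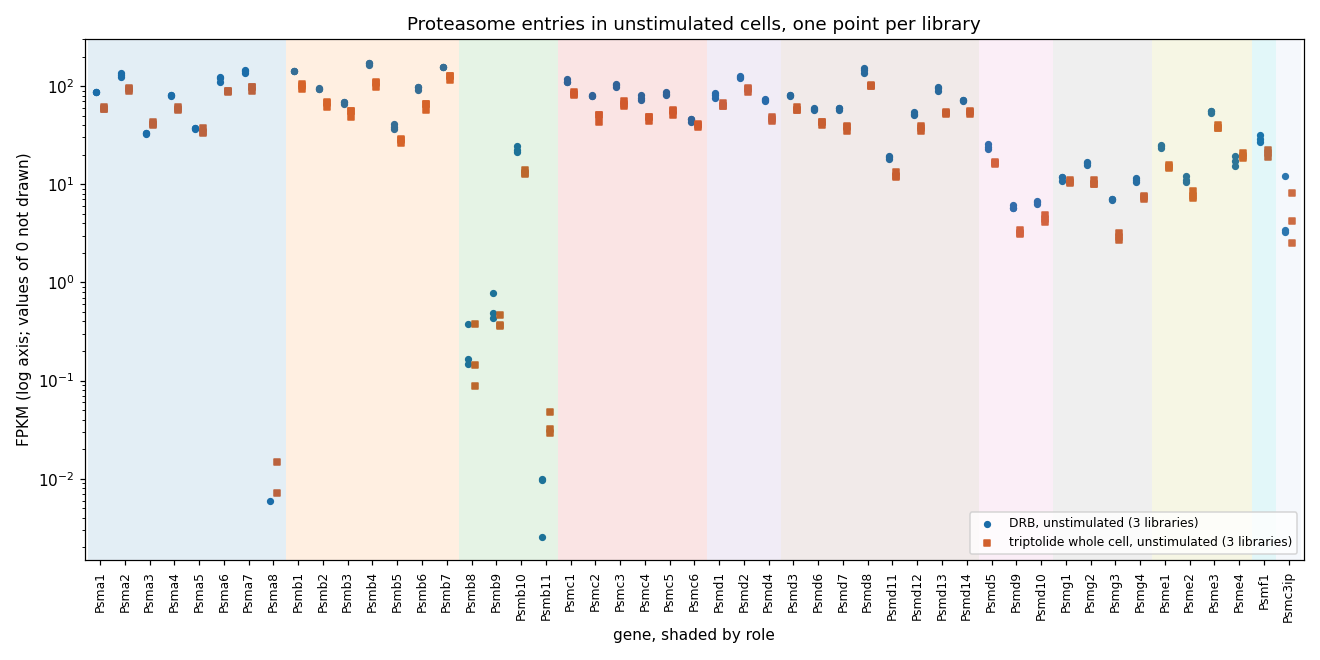
FPKM of each proteasome entry (log axis) in the 3 unstimulated DRB libraries (blue circles) and the 3 unstimulated whole-cell triptolide libraries (orange squares), with genes grouped and shaded by role. Most structural subunits lie well above 10 FPKM with nearly coinciding replicates, while Psma8, Psmb8, Psmb9 and Psmb11 lie below 1 FPKM and Psmc3ip scatters.

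The 3 catalytic beta subunits differed in level from each other. Psmb5, the chymotrypsin-like subunit, measured 41.4, 36.7 and 38.6 FPKM in unstimulated DRB libraries. Psmb6, the caspase-like subunit, measured 98.4, 91.2 and 97.6 FPKM. Psmb7, the trypsin-like subunit, measured 157, 156 and 158 FPKM. The order Psmb5, Psmb6, Psmb7 held without overlap in these libraries, and in whole cells under triptolide the means were 27.7 ± 1.44, 62.4 ± 4.81 and 122.7 ± 5.54 FPKM in the same order. Processed pseudogenes named after all 3 are annotated (Psmb5-ps, Psmb6-ps, Psmb6-ps2 and Psmb7-ps2). How reads that map to several places were counted is not given in the sources used here, so these levels are uncertain. Pseudogenes under other names were not searched for, so the same may hold for other members.

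The immune beta subunits, which replace the catalytic ones in interferon-treated or immune cells, were low with 1 exception. Psmb8, the counterpart of Psmb5, measured 0.373, 0.148 and 0.166 FPKM in unstimulated DRB libraries and never exceeded 0.478 FPKM in any of the 27. Psmb9, the counterpart of Psmb6, measured 0.776, 0.433 and 0.483 FPKM and reached at most 0.996 FPKM. Psmb10, the counterpart of Psmb7, measured 22.2, 24.7 and 21.2 FPKM, far above the other immune subunits. Psmb10 made up 11.05 to 13.9% of the summed level of Psmb10 and Psmb7 in the DRB libraries and 8.39 to 10.7% under triptolide. The matching share was 0.472 to 1.05% for Psmb9 and 0.216 to 0.895% for Psmb8 in the DRB libraries. Under triptolide it was 0.301 to 1.29% for Psmb9 and 0.275 to 1.93% for Psmb8. Microglia are the immune cells of brain, and their 10 of 10 markers found summed to 5.03 to 6.67 FPKM in unstimulated DRB libraries, most of it from Aif1, below the level of Psmb10 in these libraries. Among the defining markers there, Cx3cr1 reached at most 0.130 FPKM and P2ry12 at most 0.0413 FPKM in any DRB library, and Tmem119 had a median of 0. In unstimulated triptolide libraries the sum was 3.40 to 12.5 FPKM and Psmb10 measured 10.5 to 14.0 FPKM, where the ranges overlap, and with bicuculline in the cytosol the sum reached 16.7 FPKM, above the highest Psmb10 value there (14.5 FPKM). Levels of different genes do not show which cells express Psmb10, and the part of microglia in its level was not tested. Psmb10 overlaps a gene on the opposite strand (Gm16156), and the strand setting of the counting is not given in the sources used here.

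Subunits of other tissues were near 0. Psmb11, the beta subunit of the thymus cortex, had a mean of 0.00742 FPKM in unstimulated DRB libraries and a highest value of 0.0474 FPKM. Psma8, the alpha subunit of the testis, was listed at 0 in both replicate 2 and replicate 3 of that group and reached at most 0.0341 FPKM. With Psmb8 and Psmb9 these are the 4 entries that did not have an FPKM of at least 1 in 3 libraries and so entered no test. The other 45 were tested in every comparison.

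**Figure D2:**
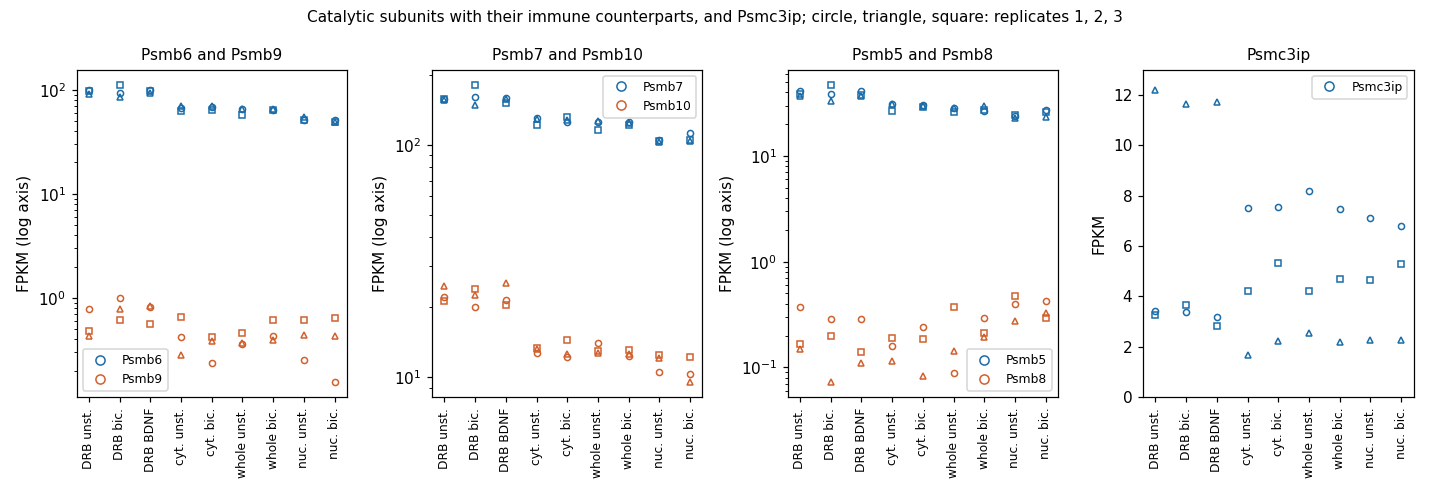
FPKM in every library of each catalytic beta subunit (blue) with its immune counterpart (orange, log axis) and, at the right, of Psmc3ip (linear axis), by group, with replicates 1, 2 and 3 as circle, triangle and square. Psmb10 lies well below Psmb7, Psmb9 and Psmb8 lie near or below 1 FPKM, and Psmc3ip separates by replicate number in every group.

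Promoter sequences are shown for Psmb5 and Psmb6, as genes of the constitutive catalytic subunits, and for Psme4, the member that differed most from the others in the comparison of nucleus and cytosol. The other catalytic gene, Psmb7, had no promoter among those available. They are RefSeq sequences on build GRCm38.p6, from 250 bases before the annotated start to 50 after it, 5′ to 3′ on the gene's strand: Psmb5 at chr14:54617946-54618245 on the minus strand, Psmb6 at chr11:70525107-70525406 on the plus strand and Psme4 at chr11:30771525-30771824 on the plus strand. Capitals mark a match to TGACNNNGC on either strand, the core of the antioxidant response element, a kind of element through which Nfe2l1 and Nfe2l2 are known to act.
Psmb5: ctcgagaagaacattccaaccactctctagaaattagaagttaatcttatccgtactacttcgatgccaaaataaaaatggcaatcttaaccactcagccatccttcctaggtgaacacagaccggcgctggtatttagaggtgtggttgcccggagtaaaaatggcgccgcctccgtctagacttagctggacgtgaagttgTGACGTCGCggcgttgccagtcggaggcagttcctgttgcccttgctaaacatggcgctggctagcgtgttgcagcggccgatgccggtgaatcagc
Psmb6: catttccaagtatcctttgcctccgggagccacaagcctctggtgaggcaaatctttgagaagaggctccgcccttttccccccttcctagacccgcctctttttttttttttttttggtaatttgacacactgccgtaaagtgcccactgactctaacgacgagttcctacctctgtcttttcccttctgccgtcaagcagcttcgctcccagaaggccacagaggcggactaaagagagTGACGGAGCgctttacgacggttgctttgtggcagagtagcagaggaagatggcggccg
Psme4: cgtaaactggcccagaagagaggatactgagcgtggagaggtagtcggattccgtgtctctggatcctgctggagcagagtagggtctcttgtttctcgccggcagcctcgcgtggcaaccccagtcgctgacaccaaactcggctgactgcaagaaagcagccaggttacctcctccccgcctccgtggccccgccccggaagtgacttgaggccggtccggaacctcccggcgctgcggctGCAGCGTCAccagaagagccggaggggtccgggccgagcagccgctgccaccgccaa
The first base of the match lies 47 bases before the start in Psmb5, 9 in Psmb6 and 7 in Psme4, where it is on the opposite strand. TGACNNNGC was found in 6 of the 43 promoters matched for 40 complex genes, or 14.0%, namely those of Psmb5, Psmb6, Psmc6, Psmd9, Psmd12 and Psme4. TGACNNNGC was found in 12.4% of all 32851 promoters of the same length. CCAAT, searched on either strand and separately, so that matches of both motifs may overlap, was found in 14 of the 43 (32.6%) and in 37.4% of all. Both shares lie near those of promoters at large, and a match is a run of letters, not a shown binding site.

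Nucleus and cytosol were compared under triptolide, which asks where the existing mRNAs lay while new transcription was blocked. An FPKM is a share of its own library, so a difference here is one of share between fractions, not of molecules per cell. In unstimulated cells 36 of the 45 tested entries were lower in the nucleus than in the cytosol and 2 were higher (limma on log2(FPKM + 0.5), Benjamini-Hochberg adjusted p under 0.05 over 14205 genes). Over all genes tested, 28.0% were lower and 39.0% higher. With quantile normalization 33 members were lower and 2 higher, while 41.1% of genes were lower and 27.8% higher. That scaling ended the calls of Psma3, Psma7, Psmb1, Psmb3, Psmb4, Psmb7 and Psmd8 and added those of Psmb10, Psmd9, Psme2 and Psmg4, all lower in the nucleus. The median log2 difference of the 45 was -0.35, against 0.06 over all genes. The whole-cell mean lay between the means of both fractions for 39 of 45.

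Cell type markers also differed between the fractions. All 3 inhibitory neuron markers were lower in the nucleus (median -1.27), with a summed level of 228 to 292 FPKM in the cytosol and 96.1 to 119 FPKM in the nucleus. Of the 8 markers of the neuron list 5 were lower and 2 higher (median -0.56), with sums of 1828 to 1855 and 1626 to 1787 FPKM. Of 6 tested astrocyte markers 3 were higher in the nucleus (median 0.26), with sums over all 7 of 448.5 to 569 FPKM in the cytosol and 539 to 631 FPKM in the nucleus. The part of cell types in the differences of the proteasome genes was not tested.

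All 7 tested core alpha subunits were lower in the nucleus, from Psma3 (-0.17 ± 0.06 SE) to Psma1 (-0.46 ± 0.05). Psma1 measured 64.2, 67.9 and 62.8 FPKM in the cytosol and 44.5, 47.9 and 48.6 in the nucleus, with no overlap (adjusted p from limma 8.6e-07). Psma3 measured 43.4, 41.6 and 38.2 FPKM in the cytosol and 34.5, 39.2 and 35.9 in the nucleus, where the groups overlap. Its call (adjusted p from limma 0.031) was lost without unstimulated cytosol replicate 1 (-0.13) or 2 (-0.16), and without unstimulated nucleus replicate 1 (-0.13) or 3 (-0.15). With quantile normalization the calls of Psma3 (-0.06) and Psma7 (-0.06) were lost.

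All 7 core beta subunits were lower in the nucleus as well, from Psmb3 (-0.26 ± 0.07) to Psmb2 (-0.40 ± 0.06). Psmb2, a non-catalytic beta subunit, measured 70.5, 77.4 and 66.2 FPKM in the cytosol and 52.5, 57.0 and 52.3 in the nucleus. Psmb3, also non-catalytic, measured 58.8, 57.1 and 49.2 FPKM in the cytosol and 43.8, 48.4 and 44.9 in the nucleus. In both genes every nuclear library was below every cytosolic one. The catalytic subunits lay inside that range, with -0.31 ± 0.07 for Psmb5, -0.35 ± 0.06 for Psmb6 and -0.29 ± 0.05 for Psmb7. Psmb7 measured 130, 130 and 121 FPKM in the cytosol and 105, 103 and 104 in the nucleus. Psmb6 measured 66.7, 70.3 and 62.6 FPKM against 50.9, 55.1 and 50.7, and Psmb5 31.1, 31.2 and 26.4 FPKM against 23.7, 22.9 and 24.3. Nuclear and cytosolic values did not overlap in any of the 3. Of the 7 core beta calls, 4 were lost with quantile normalization, those of Psmb1 (-0.10), Psmb3 (-0.11), Psmb4 (-0.05) and Psmb7 (-0.06). The immune subunit Psmb10 measured 12.7, 13.2 and 13.4 FPKM in the cytosol and 10.5, 12.1 and 12.4 in the nucleus (-0.17 ± 0.09, adjusted p from limma 0.10), and passed the threshold (adjusted p = 0.043) once replicate number was fitted as a blocking factor.

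All 6 base ATPases of the regulatory particle were lower in the nucleus, with a median log2 difference of -0.45. Psmc5 measured 65.4, 63.8 and 56.4 FPKM in the cytosol and 43.7, 43.1 and 43.8 in the nucleus (-0.50 ± 0.06). Psmc4 measured 52.1, 52.5 and 46.2 FPKM in the cytosol and 39.8, 39.8 and 40.5 in the nucleus (-0.32 ± 0.06). The nuclear libraries of each ATPase named here were nearly alike, and all were below the cytosolic ones. The 3 other base subunits were lower too, from Psmd1, a large scaffold subunit (-0.39 ± 0.06), to Psmd4, a ubiquitin receptor (-0.47 ± 0.06). Psmd1 measured 68.7, 72.9 and 69.6 FPKM in the cytosol and 50.6, 55.7 and 54.8 in the nucleus. Psmd4 measured 53.1, 53.0 and 48.1 FPKM in the cytosol and 36.3, 36.3 and 38.6 in the nucleus. The groups did not overlap in either gene. The median for the core alpha subunits was -0.37 and for the core beta subunits -0.31, and the difference between these groups of genes was not tested.

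The lid held both the lowest difference and one of the smallest. Of its 8 subunits 7 were lower in the nucleus, and the call of Psmd8 was lost with quantile normalization (-0.03). Psmd12 (chromosome 11, 107479483 to 107504362), a scaffold subunit of the lid, measured 41.7, 45.5 and 41.3 FPKM in the cytosol and 25.6, 29.5 and 26.5 in the nucleus. This was the lowest difference among the 45 (-0.65 ± 0.07, 1.57-fold lower in the nucleus, adjusted p from limma 4.7e-07). Psmd11 (chromosome 11, 80428615 to 80472306), another scaffold subunit, measured 12.6, 13.03 and 12.1 FPKM in the cytosol and 12.2, 12.1 and 12.4 in the nucleus, and the groups overlap (-0.04 ± 0.06, adjusted p from limma 0.61).

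Helper proteins were more varied. The base chaperone Psmd10 (gankyrin) measured 4.95, 5.12 and 5.04 FPKM in the cytosol and 4.01, 3.38 and 3.18 in the nucleus (-0.47 ± 0.09). Psmd9, another base chaperone, measured 3.28, 3.17 and 3.14 FPKM in the cytosol and 2.95, 2.74 and 2.73 in the nucleus (-0.16 ± 0.07). Psmd9 missed the threshold (adjusted p from limma 0.057) and passed it with the block (adjusted p = 0.031), and also without unstimulated nucleus replicate 1 (-0.19). Of the core chaperones, Psmg3, the partner of Psmg4, measured 2.94, 3.53 and 3.005 FPKM in the cytosol and 2.19, 1.92 and 2.23 in the nucleus (-0.49 ± 0.09). Psmg4 had a difference of -0.18 ± 0.11 (adjusted p from limma 0.18), which passed with the block (adjusted p = 0.028). The inhibitor Psmf1 measured 23.1, 22.3 and 22.5 FPKM in the cytosol and 17.7, 15.1 and 16.6 in the nucleus (-0.45 ± 0.08), with no overlap. With the block 39 of 45 were lower and 2 higher, against 33.1% and 42.8% of all genes.

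Both genes that were higher in the nucleus encode helpers. Psme4 (chromosome 11, 30771775 to 30880353) encodes an activator known for nuclear roles, including the breakdown of acetylated histones. Its level was 12.6, 12.3 and 10.4 FPKM in the cytosol, 18.4, 21.0 and 19.3 in whole cells and 32.3, 29.4 and 27.1 in the nucleus. The fractions did not overlap, and the difference was 1.30 ± 0.11 (2.46-fold on FPKM + 0.5, adjusted p from limma 2.9e-08). Psmg1 (chromosome 16, 95979935 to 95990960) encodes a chaperone that pairs with the product of Psmg2 to build the alpha ring. Its level was 8.13, 8.65 and 6.90 FPKM in the cytosol, 10.6, 11.1 and 10.3 in whole cells and 15.7, 13.9 and 14.0 in the nucleus. Again the fractions did not overlap, and the difference was 0.85 ± 0.10 (1.80-fold, adjusted p from limma 9.6e-07). The other activators had smaller differences: Psme1 (-0.28 ± 0.09) was lower in the nucleus, while Psme2 (-0.10 ± 0.08) and Psme3 (-0.02 ± 0.08), whose product is mostly nuclear, did not pass the test. With quantile normalization Psme2 passed (-0.29). Psme1 measured 15.6, 17.0 and 14.8 FPKM in the cytosol and 11.6, 12.96 and 14.3 in the nucleus, and its call was lost without unstimulated cytosol replicate 2 (-0.23) or unstimulated nucleus replicate 1 (-0.21).

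**Figure D3:**
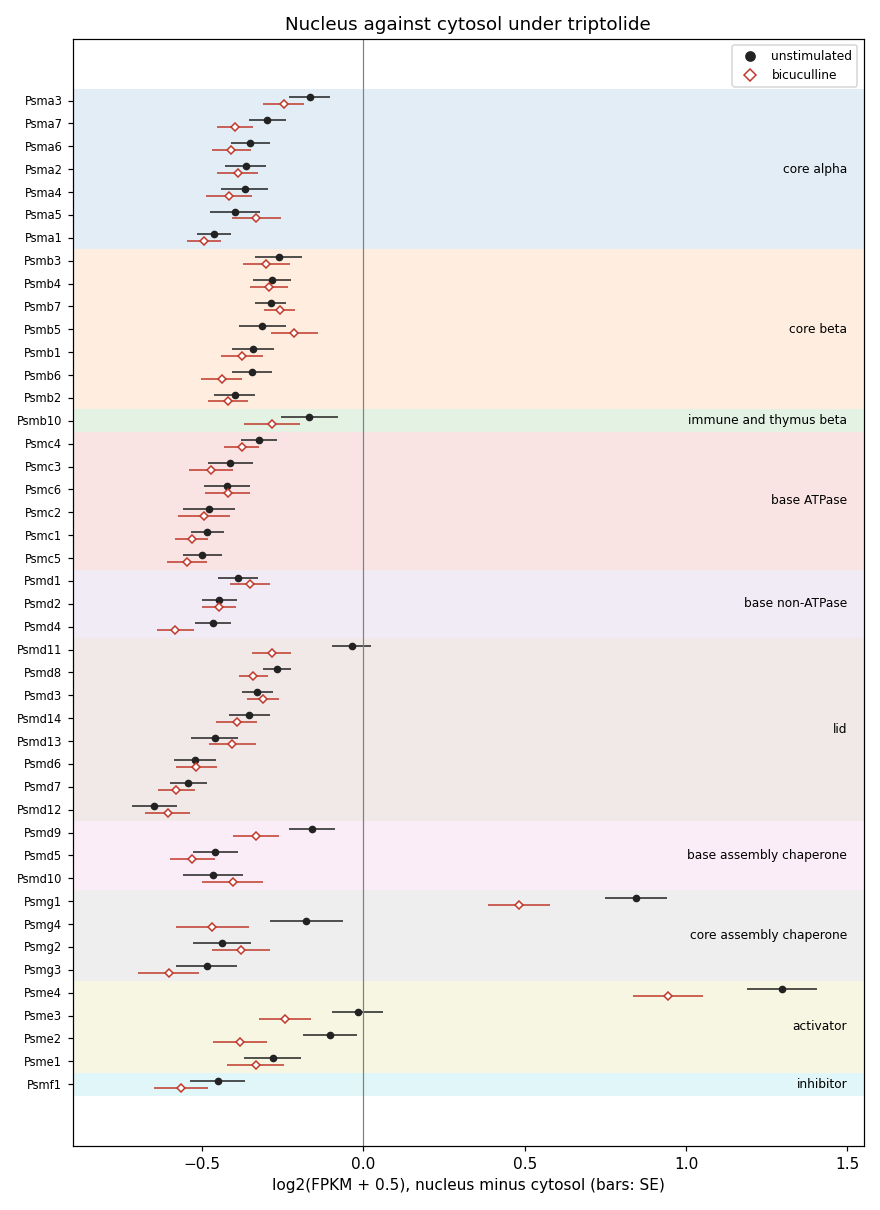
Log2 difference of FPKM + 0.5, nucleus minus cytosol (horizontal axis, bars are SE), for 44 tested proteasome genes grouped by role, in unstimulated cells (black circles) and with bicuculline (red open diamonds). Psmc3ip is not drawn. Points of the structural subunits lie between -0.65 and 0, and those of Psme4 and Psmg1 lie right of 0 in both states.

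Properties of the gene models showed little relation to these differences. Over the 44 tested members of the complex, Spearman's rho between the nucleus minus cytosol difference and gene span was 0.0032, with the number of exons -0.05, with mRNA length -0.096 and with the number of annotated retained-intron transcripts 0.10. These are descriptions across genes that share libraries, and GENCODE M21 supplied the models. Psme4 has the largest span of the members, 108636 bp with 47 exons and an mRNA of 6491 nt, and no annotated retained-intron transcript, whereas 33 of the 48 members of the complex have at least 1. Psmg1 has 7 exons over 11028 bp and 1 such transcript. A gene on the opposite strand overlaps 18 of the 48, among them Psme4 (Gm12103), Psma3 (3110056K07Rik) and Psmd13 (Sirt3), and reads of such pairs could have been counted together.

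With bicuculline the pattern between fractions was alike, and nearly every member passed the test. Of the 45, 42 were lower in the nucleus and the same 2, Psme4 and Psmg1, were higher, and only Psmc3ip (-0.04 ± 0.63) did not pass. Over all genes 31.9% were lower and 31.3% higher, and the median was -0.39 for the members and -0.04 for all genes. Psme4 measured 13.8, 14.0 and 13.1 FPKM in the cytosol and 26.7, 31.9 and 22.4 in the nucleus (0.94 ± 0.11, 1.92-fold). Psmg1 measured 8.81, 8.68 and 8.82 FPKM in the cytosol and 12.1, 14.8 and 10.7 in the nucleus (0.48 ± 0.10, 1.40-fold). Psmd11, which had shown no called difference, measured 13.7, 15.1 and 14.4 FPKM in the cytosol and 11.3, 12.2 and 11.7 in the nucleus (-0.28 ± 0.06, adjusted p from limma 6.6e-04). Calls were lost for Psmb5 without nucleus bicuculline replicate 2 (-0.15), for Psme3 without nucleus bicuculline replicate 1 (-0.19) and for Psmb10 without cytosol bicuculline replicate 3 (-0.21) or nucleus bicuculline replicate 2 (-0.21). With quantile normalization 36 members were lower and 2 higher (36.3% and 23.8% of genes), and the calls of Psma3 (-0.10), Psmb3 (-0.13), Psmb4 (-0.06), Psmb5 (-0.10), Psmb7 (-0.04) and Psme3 (-0.10) were lost. Inhibitory neuron markers were again lower in the nucleus in 3 of 3 (median -0.97). Those of the neuron list were lower in 5 of 8 and higher in 2 (median -0.38). Astrocyte markers were higher in 2 of 6 (median 0.13).

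**Figure D4:**
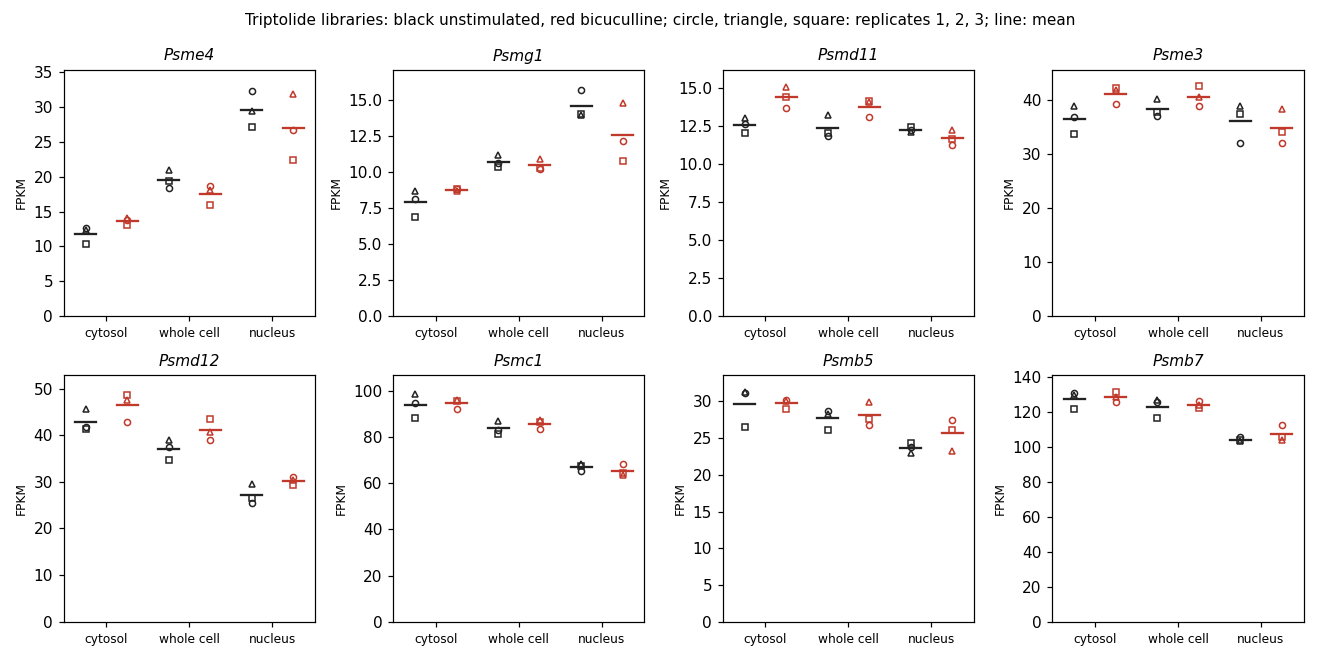
FPKM of 8 proteasome genes in each triptolide library (vertical axis, starting at 0) by RNA fraction, unstimulated in black and bicuculline in red, with replicates 1, 2 and 3 as circle, triangle and square and the mean of 3 as a line. Psme4 and Psmg1 climb from cytosol to nucleus, Psmd12, Psmc1, Psmb5 and Psmb7 descend, and the fractions overlap for Psmd11 and Psme3 in unstimulated cells.

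With a transcription inhibitor in every group, the stimuli moved the levels of the proteasome genes little. No group without an inhibitor is analysed here, so a response through new transcription was not tested. Under DRB, none of the 45 was called after bicuculline, and none at an unadjusted p under 0.05, while 0.308% of 13321 genes were called (limma). The differences ran from -0.04 to 0.11 with a median of 0.04, against 0.00 over all genes. After BDNF none was called, and none at an unadjusted p under 0.05, while 0.638% of genes were called; the differences ran from -0.11 to 0.06 with a median of -0.01. In both comparisons, which share the unstimulated libraries, the 95% interval of 44 of the 45 lay within 0.5 log2 units of 0 on either side, the exception being Psmc3ip. BDNF against bicuculline gave none of 45 (0.128% of genes), with 1 at an unadjusted p under 0.05, the core chaperone Psmg2 (-0.15 ± 0.06). With replicate number as blocking factor, 0 of 45 were called in each of the 3 comparisons, while 0.571%, 1.49% and 0.540% of genes were called.

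The catalytic subunits show how small these changes were. Psmb7 measured 157, 156 and 158 FPKM without stimulus, 161, 148 and 182 with bicuculline and 160, 157 and 151 with BDNF. Psmb6 measured 98.4, 91.2 and 97.6 FPKM, then 93.4, 84.4 and 112, then 98.5, 92.8 and 96.6. Psmb5 measured 41.4, 36.7 and 38.6 FPKM, then 38.8, 33.5 and 47.5, then 41.1, 37.2 and 37.7. In all 3 genes the groups overlap, and bicuculline replicate 3 was the highest and bicuculline replicate 2 the lowest of the 9 libraries.

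Under triptolide, bicuculline again called none of the 45 in whole cells (0.0352% of 14205 genes), in the nucleus (1.81%) or in the cytosol (3.27%). At an unadjusted p under 0.05 there were 6, 4 and 4 members, of 11.02%, 17.4% and 19.5% of genes. The median difference was 0.06 in whole cells, 0.03 in the nucleus and 0.08 in the cytosol, where the median over all genes was also 0.08. With that block, 4.23%, 13.1% and 15.3% of genes were called, and 1, 3 and 2 of the 45. The 95% interval lay within 0.5 log2 units of 0 on either side for 44, 43 and 44 of the 45.

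Psmd1, the large base scaffold, was called with the block in all 3 preparations. Same-numbered libraries of the 3 preparations carry the same sample code in the labels and moved together, so the 3 calls are not independent results. In whole cells it measured 62.2, 66.9 and 62.6 FPKM without and 66.7, 75.9 and 70.8 with bicuculline, higher in 3 of 3 replicate pairs (0.15 ± 0.04 with the block, adjusted p from limma 0.038). In the nucleus it measured 50.6, 55.7 and 54.8 FPKM without and 58.5, 62.3 and 59.1 with bicuculline, with no overlap (0.16 ± 0.04, adjusted p from limma 0.015 with the block and 0.19 without). In the cytosol it measured 68.7, 72.9 and 69.6 FPKM without and 71.6, 81.0 and 77.6 with bicuculline, where the groups overlap (0.12 ± 0.04, adjusted p from limma 0.042 with the block). As given above, the median over all genes in the cytosol was above 0 too. Without the block, genes called there went from 465 to 2 with quantile normalization and to 31 with median-ratio scaling. The block was not combined with these scalings, here or for the other calls with the block. Under DRB the same gene gave 84.6, 74.7 and 82.0 FPKM without and 77.2, 76.2 and 92.0 with bicuculline, where the groups overlap (0.02 ± 0.08). The difference between the 2 inhibitors in this response was not tested.

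In the nucleus, Psme2 (chromosome 14, 55587440 to 55591101), an interferon-inducible activator subunit, measured 7.53, 7.005 and 7.28 FPKM without and 5.47, 5.49 and 6.15 with bicuculline. Every bicuculline library was below every unstimulated one (-0.33 ± 0.08, adjusted p from limma 0.057). It passed the threshold with the block (adjusted p = 0.013). Psme2 was also the 1 member called with median-ratio scaling (2.25% of genes) and with quantile normalization (4.80% of genes). The core chaperone Psmg4 measured 6.49, 7.33 and 5.52 FPKM without and 6.12, 5.45 and 4.63 with bicuculline, lower in 3 of 3 pairs (-0.24 ± 0.07 with the block, adjusted p from limma 0.035). In the cytosol Psmd11 measured 12.6, 13.03 and 12.1 FPKM without and 13.7, 15.1 and 14.4 with bicuculline, with no overlap (0.19 ± 0.05 with the block, adjusted p from limma 0.018). Psmg1 in the nucleus passed the threshold without nucleus bicuculline replicate 2 (-0.33, adjusted p from limma 0.045).

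The difference of the bicuculline response between nucleus and cytosol called none of the 45 (0.556% of genes), with 4 members at an unadjusted p under 0.05. With the block it called 3 (9.76% of genes), all with a lower response in the nucleus: Psme4 (-0.35 ± 0.11), Psmg1 (-0.36 ± 0.11) and Psmd11 (-0.25 ± 0.07). Without nucleus bicuculline replicate 2, Psmg1 was called also without the block (-0.48).

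**Figure D5:**
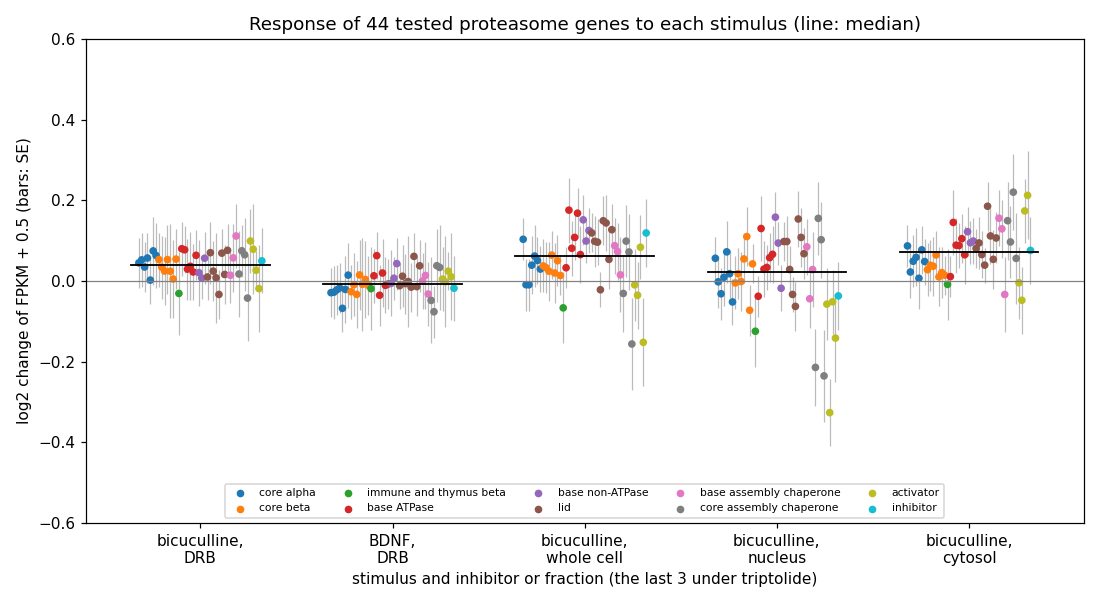
Log2 change of FPKM + 0.5 after each stimulus (vertical axis, grey bars are SE) for 44 tested proteasome genes, coloured by role, with the median of the 44 as a black line; the last 3 columns are RNA fractions under triptolide. Nearly all points lie within 0.2 of 0, with the activator Psme2 in the nucleus as the lowest at -0.33.

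Unstimulated whole cells under triptolide and unstimulated cells under DRB were also set side by side. These groups differ in inhibitor and its duration together with the experiment, which cannot be told apart. The comparison takes the DRB libraries, whose titles name no fraction, as whole-cell RNA. Between them oligodendrocyte markers (7 of 7 found) summed to 171 to 224 FPKM under DRB and 71.1 to 86.9 FPKM under triptolide. Of these, 6 were called lower under triptolide (median -1.10). Astrocyte markers (7 of 7) stood at 402 to 456 and 514 to 591 FPKM, with 2 called higher and 1 lower (median 0.25). Of the 8 markers of the neuron list 4 were called lower and 1 higher (median -0.33). Of the 3 inhibitory neuron markers 1 was called lower (median -0.18). The nuclear long noncoding RNAs summed to 348 to 668 FPKM under DRB and 635 to 958 FPKM under triptolide, with 2 of 5 called higher, Meg3 and Rian (median of the 5 0.54). Markers of proliferating cells (4 of 4) summed to 9.82 to 20.0 FPKM under DRB and 6.94 to 9.40 FPKM under triptolide, with 2 of 4 called lower (median -0.71). The part of these in the differences was not tested. Of the 45 members 40 were lower under triptolide and 1 higher, while 48.4% of 13930 genes were lower and 15.5% higher. The median difference was -0.51 for the members and -0.26 over all genes. The largest was that of the chaperone Psmg3, at 7.01, 7.06 and 6.99 FPKM under DRB and 2.71, 3.21 and 2.94 under triptolide (-1.13 ± 0.09, 2.18-fold lower). The lid subunit Psmd13 measured 98.6, 89.8 and 95.6 FPKM under DRB and 52.6, 54.2 and 52.0 under triptolide (-0.83 ± 0.06). Psmd9 (-0.78 ± 0.08) and Psmb10 (-0.76 ± 0.09) followed, and in all 4 genes the groups did not overlap.

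A few members did not share this. Psma3 measured 32.4, 33.3 and 33.0 FPKM under DRB and 41.3, 43.5 and 40.6 under triptolide, the one called rise (0.34 ± 0.06, adjusted p from limma 2.1e-04). The gene on its opposite strand, 3110056K07Rik, had at most 1.24 FPKM in any library. Whether reads of the overlap entered the values of Psma3 was not tested. Psme4 (0.18 ± 0.10), Psma5 (-0.09 ± 0.06), Psmg1 (-0.10 ± 0.09) and Psmc3ip did not pass. Without DRB unstimulated replicate 2, Psme4 passed (0.27), and Psmc6 lost its call without that library (-0.16), without DRB unstimulated replicate 3 (-0.16) or without whole-cell unstimulated replicate 2 (-0.15). With median-ratio scaling, which brings the median of all genes from -0.26 to 0.00, 29 were lower and 3 higher (28.2% and 28.7% of genes), with a median of -0.22. The higher ones were Psma3, Psme4 (0.47) and Psma5, which turned from -0.09 to 0.20 (adjusted p from limma 0.018). Psmc6 turned from a called -0.18 to 0.11 under that scaling and to 0.0076 with quantile normalization, with no call in either. Median-ratio scaling also ended the calls of Psma4, Psma6, Psmb3, Psmb5, Psmb7, Psmc1, Psmd1, Psmd8, Psmd14 and Psme2, all with negative values. The calls over all genes went from 2159 higher and 6749 lower to 4001 and 3931 with it.

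Psmc3ip (chromosome 11, 101092142 to 101095435), the entry outside the complex, followed the replicate number and not the treatment. In DRB libraries of replicate 2 it measured 11.7 to 12.2 FPKM over the 3 treatments, and in those of replicates 1 and 3 2.82 to 3.67 FPKM. In triptolide libraries it measured 6.81 to 8.18 FPKM in replicate 1, 1.67 to 2.54 in replicate 2 and 4.21 to 5.31 in replicate 3, over all fractions and states. The values of a replicate number did not overlap those of another within triptolide. The highest of the 3 replicate means was 3.65 times the lowest under DRB and 3.40 times under triptolide, while for the other 44 tested entries this ratio was at most 1.21. Mlx, which overlaps it on the opposite strand, had a ratio of 1.02 under DRB and 1.09 under triptolide. Whether reads of the overlap entered the values of Psmc3ip was not tested.

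Other genes of the pathway were taken from a list of 32, of which 31 were found and tested. Between nucleus and cytosol in unstimulated cells 18 of the 31 were lower in the nucleus and 4 higher, with a median of -0.28. The lowest were the shuttle proteins Ubqln2 (-0.65 ± 0.06), Rad23b (-0.64 ± 0.08) and Ubqln1 (-0.60 ± 0.06), the segregase Vcp (-0.60 ± 0.07) and the deubiquitinase Usp14 (-0.59 ± 0.08). Ubqln2 measured 76.3, 73.8 and 76.2 FPKM in the cytosol and 50.1, 51.1 and 43.1 in the nucleus. Among those higher in the nucleus were Midn (0.77 ± 0.10), the transcription factor Nfe2l2 (0.76 ± 0.16) and the ubiquitin-activating enzyme Uba6 (0.24 ± 0.09). With bicuculline 20 were lower in the nucleus and 2 higher, Nfe2l2 (0.58 ± 0.16) and Midn (0.49 ± 0.10).

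Of these 31 genes Midn was the one called after BDNF, and none was called after bicuculline under DRB. Midn encodes midnolin, known to bring transcription factors such as the products of immediate early genes to the proteasome without ubiquitin. Midn measured 18.7, 18.5 and 17.9 FPKM without stimulus, 20.6, 22.0 and 21.0 with bicuculline and 25.7, 26.4 and 26.2 with BDNF, and none of the groups overlap. It rose with BDNF (0.50 ± 0.05, adjusted p from limma 0.0021), and its value for bicuculline was 0.20 ± 0.05 (adjusted p from limma 0.57). BDNF against bicuculline gave 0.29 ± 0.05 (adjusted p from limma 0.12, and 0.035 with the block). Under triptolide none of the 31 was called after bicuculline in whole cells or cytosol and 1 was called lower in the nucleus (limma). With the block 2 were higher in whole cells, 8 higher in the cytosol, and 5 higher and 1 lower in the nucleus.

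Between triptolide and DRB 5 of the 31 were higher and 21 lower, beside 15.5% and 48.4% of all genes. Among those higher were Rps27a (2.02 ± 0.09), Vcp (1.40 ± 0.07) and the ubiquitin gene Ubb (1.08 ± 0.13). Ubb measured 312, 263 and 306 FPKM under DRB and 687, 669 and 516 in whole cells under triptolide. Vcp measured 15.6, 13.9 and 15.03 FPKM under DRB and 38.4, 42.3 and 38.9 under triptolide. The lowest were Midn (-0.99 ± 0.06), Nploc4 (-0.67 ± 0.10), Ubqln4 (-0.65 ± 0.09), Akirin2 (-0.63 ± 0.06) and Uba1 (-0.61 ± 0.07). Rps27a, a fusion of ubiquitin and a ribosomal protein, has processed copies elsewhere in the genome, so its level is less certain.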

How the data were processed

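Polyadenylated RNA was sequenced from stranded mRNA libraries of total RNA, per the labels' protocols. Build mm10 and the tools STAR 2.4.0, SAMtools, Picard and FastQC are listed in the submitters' processing notes. The deposited values are FPKM computed by the authors on the gene models of the FASTDB annotation, 1 per gene and library. How reads were counted, by which program, on which strand and with what rule for multiple mapping, is not given in the sources used here.

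Genes that reached an FPKM of 1 in 3 or more libraries of an experiment were fitted, as log2(FPKM + 0.5), with limma 3.58.1 (R 4.3.3), with a mean per group and trended, robust moderation, two-sided. A call is a Benjamini-Hochberg adjusted p under 0.05 over all genes. The fit was tested on simulated data in which libraries varied independently. Such data do not cover deviations shared by libraries of the same number. Replicates are libraries numbered 1 to 3 in each group, and the labels do not say that they came from separate animals, so p-values measure the spread between these libraries. Same-numbered libraries of an experiment deviated from their group means together in every pair (lowest correlation 0.463 under DRB and 0.256 under triptolide), so the replicate number was also fitted as a block, as an alternative. The other alternatives were a pseudocount of 0.1 or 1, no filter on low values, quantile and median-ratio scaling, and each library left out. The precision is set by the depth of 67587699 to 147958762 fragments, estimated from single-exon genes, and by 3 libraries per group. GENCODE M21 supplied gene models and RefSeq the promoters; 49 of 49 entries matched the first. Named genes are all members, with values per library for catalytic and immune beta subunits and for the members with the highest and lowest nucleus minus cytosol difference in each role, and members called in a response; of the pathway list, the 5 largest called differences in each direction. Values per library for Psmd13, Psma3, Psmg4 and Midn among others were added after they were seen. Some single results of the pathway list are not reported here, while its counts cover all 31 genes. The members, lists and tests were chosen with earlier results of these data known. Tables and figures were made in Python 3.11.15 (numpy 2.4.6, pandas 2.3.3, matplotlib 3.10.9).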

Additional observations from a re-analysis of the deposited data

Results flagged for a closer look

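The bicuculline response under triptolide differed between nucleus and cytosol for 3 members in the fit blocked by replicate number, by a test of the difference itself (limma). Psme4 had a difference of -0.354 on the log2 scale (adjusted p = 0.049), Psmg1 of -0.364 (adjusted p = 0.049) and Psmd11 of -0.248 (adjusted p = 0.036). Without the block none of them passed (adjusted p from limma 0.27, 0.20 and 0.17). For Psme4 the ratio of nucleus to cytosol was 2.56, 2.39 and 2.61 in replicates 1 to 3 without bicuculline and 1.93, 2.28 and 1.71 with it. For Psmg1 it was 1.93, 1.61 and 2.03 without and 1.38, 1.70 and 1.22 with bicuculline, so replicate 2 went the other way. For Psmd11 it was 0.968, 0.926 and 1.03 without and 0.825, 0.810 and 0.810 with bicuculline. With the block 9.76% of all genes were called in this comparison, and the median over all genes was -0.11. Of the 5 nuclear long noncoding RNAs none was called, and their median was -0.30. In the nucleus these RNAs summed to 1348 to 1423 FPKM without bicuculline and, in order of size, to 1102, 1115 and 2056 FPKM with it. Nuclear libraries without bicuculline lay at 43.1 to 47.5 on the first principal component under triptolide. With it, replicates 1 to 3 lay at 30.8, 48.3 and 27.6. The part of fraction purity in these differences was not tested.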

How the results depend on the processing

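Of 5760 values of members recomputed under the alternatives, 5691 kept their direction and side of the threshold or had no call either way, and 468 of these changed sign with no call in either fit. Another 38 lost a call, 28 gained one and 3 reversed, the last all between triptolide and DRB: Psmc6 at 0.0076 with quantile normalization and 0.11 with median-ratio scaling, and Psma5 at 0.20 with median-ratio scaling, where it was called higher (adjusted p from limma 0.018). With replicate number as a block, members called rose from 0 to 1 (bicuculline, whole cell), 3 (nucleus), 2 (cytosol) and 3 (nucleus minus cytosol response), and genes called went from 41 to 76 and 85 to 199 (bicuculline and BDNF under DRB), 17 to 72 (BDNF against bicuculline), 5 to 601 (whole cell), 257 to 1862 (nucleus), 465 to 2175 (cytosol) and 79 to 1387 (difference of responses). No block was fitted between triptolide and DRB, whose numbers are not shared. The block changed no other call of a member than those named beside the results. In the nucleus, quantile normalization and median-ratio scaling each called 1 member, Psme2. Genes called in the nucleus, cytosol and difference of responses were 561, 106 and 29 with no filter on low values, 682, 2 and 48 with quantile normalization, and 31 (cytosol) and 153 (difference) with median-ratio scaling. A pseudocount of 1 called 3 genes in whole cells. With no filter, nucleus against cytosol called 19387 genes unstimulated and 16850 with bicuculline, against 9511 and 8983.

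With quantile normalization the median of all genes for nucleus against cytosol in unstimulated cells moved from 0.06 to -0.12 and calls from 5540 higher and 3971 lower to 3943 and 5837; the members then had 33 lower and 2 higher, with a median of -0.24. Between triptolide and DRB it gave 3355 and 5027 genes. With each library left out, and replicate 2 left out of every DRB group (chosen after seeing the data), members called stayed at 0 under DRB, in whole cells and in the cytosol, and were 0 to 1 in the nucleus and for the difference of responses, 36 to 38 and 42 to 44 between fractions and 40 to 41 between inhibitors. Genes called ranged over 27 to 38, 50 to 68 and 9 to 20 under DRB (bicuculline, BDNF, BDNF against bicuculline), 1 to 5 in whole cells, 21 to 520 in the nucleus, 12 to 334 in the cytosol, 9 to 671 for the difference of responses, 8790 to 9190 and 7863 to 8646 between fractions and 8132 to 8417 between inhibitors. The counts of 520 and 671 came without nucleus bicuculline replicate 2. At these depths the tested members lie far above single fragments, and depth limits mainly Psma8, Psmb8, Psmb9 and Psmb11.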
